A study of Saccharomyces cerevisiae with 13 samples.

Results

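The genes described here code for the proteins of the small (40S) subunit of the cytoplasmic ribosome of *Saccharomyces cerevisiae*, RPS0A to RPS31. They were chosen by their systematic names, with no use of measured values. The list has 56 genes, of which 52 are among the 4280 transcript models with values. RPS11A, RPS22B, RPS25A and RPS26A are not among these models and were not analysed here. The 52 genes comprise 20 complete pairs of A and B copies, 8 single-copy genes and 4 genes whose partner copy is the one not analysed (RPS11B, RPS22A, RPS25B and RPS26B).

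The study compared transcriptional activity with transcript abundance in growing and in heat-shocked yeast, in 4 groups of 3 libraries each. NRO (HS) libraries hold nascent RNA of heat-shocked cells, NRO libraries nascent RNA of cells in log growth, and total RNA (HS) and total RNA libraries the unselected RNA of the same 2 conditions. Nascent RNA was made in a nuclear run-on (NRO), in which stalled polymerases in permeabilized cells extend their transcripts with biotin-UTP, and was then selected on streptavidin beads. The total RNA libraries were made without the affinity selection. All groups came from the laboratory strain BY4742 in rich glucose medium (YPD). Cultures were in exponential growth at 30°, and those of the HS groups were then held at 39° for 20 min. The run-on is performed on permeabilized cells, so that it measures engaged polymerases rather than synthesis in the living cell. By the paper's estimate, some of the RNA in the NRO libraries is carried-over total RNA. The RNA was fragmented after the selection, which by the paper makes it hard to place polymerases along a gene. The authors merged the 3 libraries of each group, and there is therefore 1 value per gene and group. The spread between cultures cannot be given, no test across replicates was possible, and every interval below covers counting error only.

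The value analysed is the read density, the mean read depth per mappable base outside introns, in a region that leaves out the first 200 bp after the transcription start site (TSS), scaled to the bases acquired from the library. A read density is hence a level per base and a share of its library. A lower value does not by itself mean fewer molecules per cell, and a change in one gene is relative to all others. The estimated reads numbered 378273 for NRO (HS), 2491144 for NRO, 656630 for total RNA (HS) and 894262 for total RNA. Those of total RNA rest on a read length of 38 bases found from its depths, not the 36 of the methods. The paper reports a somewhat higher number of total RNA reads than estimated here. The members held medians of 7.5, 96, 11 and 54 estimated reads in these libraries, so that the NRO (HS) values of many members rest on a few reads. Of 8 heat shock genes used as a check of the labels, 7 were at least 2-fold higher in total RNA (HS) than in total RNA. These 8 genes were chosen with earlier results of these data known.

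The 40S subunit binds the mRNA and carries the decoding centre, and each of its proteins is needed in equal amounts as the subunit is built around the 18S rRNA in the nucleolus. Most of these proteins are encoded by a pair of genes that remained from an ancient duplication of the yeast genome, and a large part of the spliced mRNA of yeast comes from ribosomal protein genes. Most of their promoters are bound by Rap1, together with Fhl1, Ifh1 and Sfp1. Growth signals through the TOR and protein kinase A pathways keep these genes active, whereas stresses such as heat turn them down transiently.

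The sequences of the copies are shown first, because they set how well reads can be told apart between the copies. In the R64 assembly of RefSeq, the coding sequences of the 24 pairs were between 84.3% (RPS27) and 99.2% (RPS6) identical, with a median of 92.7%, and 19 of the 24 pairs shared an identical run of 36 bases or more. The stretch from coding base 301 to 372 is printed for RPS6, with the highest identity, and for RPS0 and RPS18, whose copies differed in read density. Capitals mark the bases that differ between the copies.
RPS6A: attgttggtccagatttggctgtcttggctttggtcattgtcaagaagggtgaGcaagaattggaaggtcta
RPS6B: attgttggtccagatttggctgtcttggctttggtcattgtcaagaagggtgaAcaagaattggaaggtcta
RPS0A: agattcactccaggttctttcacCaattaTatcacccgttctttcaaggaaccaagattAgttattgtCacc
RPS0B: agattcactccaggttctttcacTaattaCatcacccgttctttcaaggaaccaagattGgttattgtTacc
RPS18A: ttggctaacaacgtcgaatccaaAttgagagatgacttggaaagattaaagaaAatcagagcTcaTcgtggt
RPS18B: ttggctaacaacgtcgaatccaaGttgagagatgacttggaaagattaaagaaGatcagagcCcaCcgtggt
These stretches hold 1 difference for RPS6, 4 for RPS0 and 4 for RPS18. The RPS6 copies share a run of 311 identical bases, far longer than a read. The mappable share of the region was 61.5% for RPS6A and 57.0% for RPS6B. It was 75.6% for RPS4A, 77.0% for RPS4B, 88.2% for RPS24A and 88.8% for RPS24B, and above 96% in 44 of the 52 members.

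The upstream sequences were searched for a core of the Rap1 binding site, CACCC and ACA with any 2 bases between them, because Rap1 is the best known activator of these genes. Of the 56 genes, 11 (19.6%) held these letters on either strand of the 500 bases before the start codon, against 2.21% of 6019 coding genes. The motif AGGGG, the core of the stress response element bound by Msn2 and Msn4, was present in 13 of the 56 genes (23.2%), against 34.0% of the coding genes. Both motifs were searched on both strands, and a match to AGGGG can lie inside a match to the Rap1-like letters. Windows of 30 bases with the Rap1-like letters in capitals are shown for a pair of copies that both hold them and for 2 genes described below, in R64 coordinates and in the direction of the gene.
RPS16A (chrXIII:551610-551639, + strand): tacatattggCACCCATACAttataaaatc
RPS16B (chrIV:308133-308162, - strand): tcagaaaaaaCACCCATACAtgttgaaaaa
RPS21B (chrX:157597-157626, - strand): aatgtgtttaCACCCGTACActttatacat
RPS7A (chrXV:505310-505339, + strand): aaccttatcaCACCCAAACAtatgatatgg
RPS16A held a second match on the other strand. Other genes with these letters were RPS10A, RPS10B, RPS11B, RPS23B, RPS24A and RPS4B. The matches describe letters in a window, and the other 45 genes lack only these letters.

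The small subunit genes ranked high among all genes, but their levels were very unequal. Their median read density was 0.0422 in NRO (HS), 0.0699 in NRO, 0.0343 in total RNA (HS) and 0.133 in total RNA, where the medians of all 4280 models were 0.0159, 0.0214, 0.0131 and 0.0192 in the same order. In NRO, 43 of the 52 members lay above the median of all models, and in total RNA 45 did. The members held 0.706% of the bases acquired in NRO (HS) (0.680 to 0.733, 95% Wilson interval), 1.08% in NRO (1.07 to 1.09), 0.807% in total RNA (HS) (0.785 to 0.829) and 1.89% in total RNA (1.86 to 1.92). The highest read density in total RNA, 4.59 for RPS31, was 934-fold the lowest, 0.00492 for RPS27A, which rests on an estimated 2 reads. RPS31 is a single-copy gene, whereas RPS27A is a copy of a pair whose summed read density in total RNA was 0.0602. These are RNA levels of single genes and do not give the amount of protein. The 10 members with a read density above 1 held 79.7% of the summed member depth in total RNA, and 22 members were below 0.1.

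**Figure D1:**
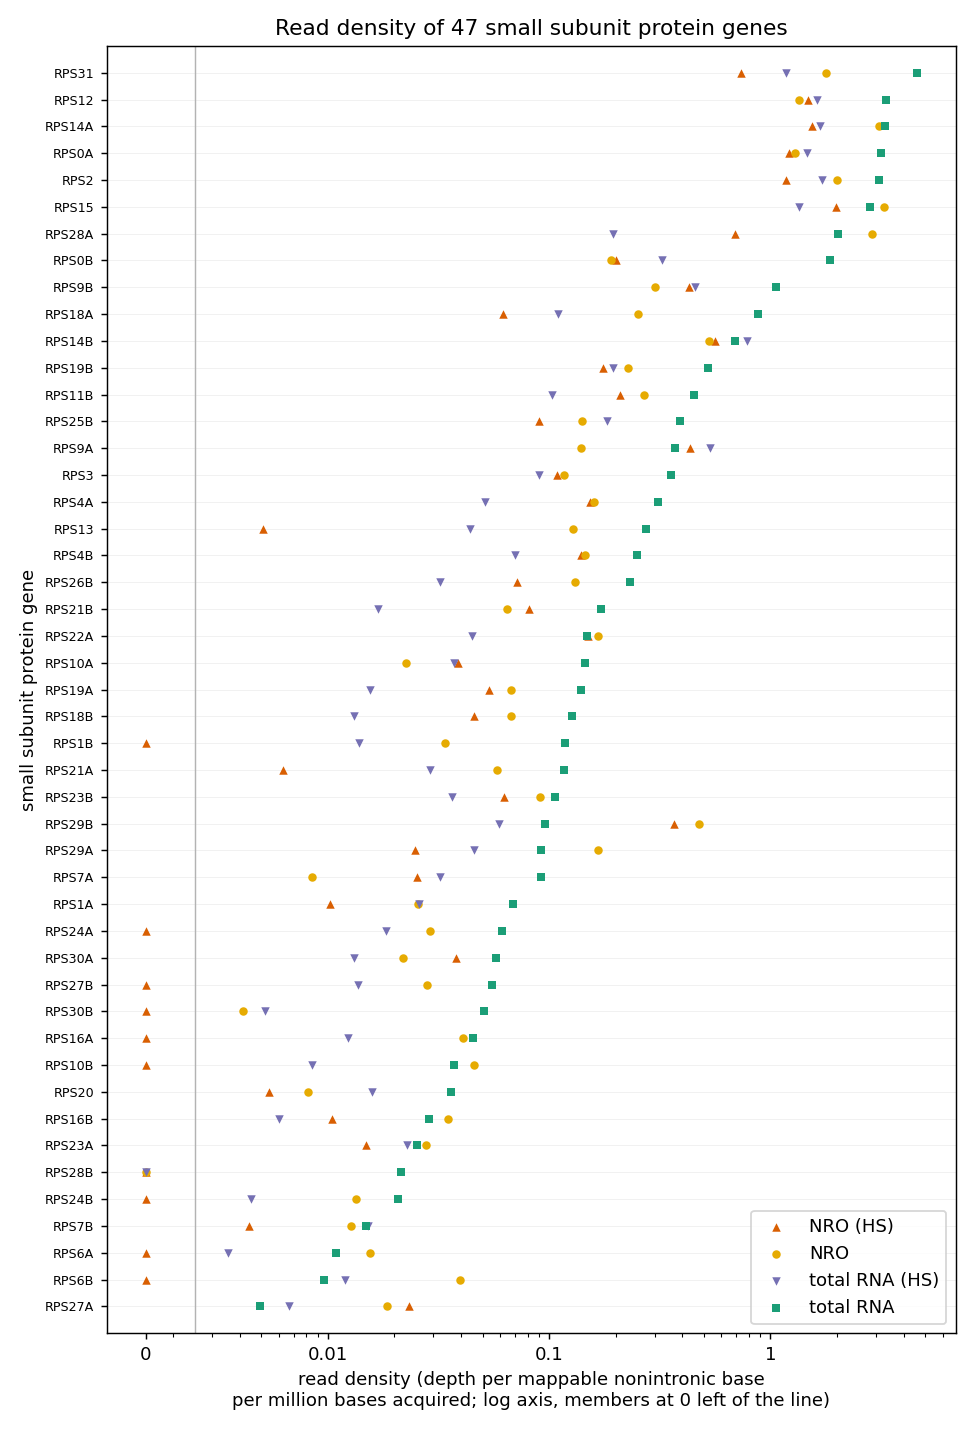
Read density of 47 small subunit protein genes (rows, ordered by total RNA) in NRO (HS), NRO, total RNA (HS) and total RNA, on a log axis, with members at 0 left of the grey line. Each point is 1 pooled value of 3 merged libraries. They span 0.00492 to 4.59 in total RNA, and 10 of those drawn are at 0 in NRO (HS).

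The single-copy genes held both high and low members. RPS31 (YLR167W) makes a fusion of ubiquitin with a ribosomal protein, and its read density was 0.737 in NRO (HS), 1.78 in NRO, 1.17 in total RNA (HS) and 4.59 in total RNA, the highest value of any member in total RNA. RPS12 (YOR369C) had 1.47 in NRO (HS), 1.35 in NRO, 1.62 in total RNA (HS) and 3.32 in total RNA. RPS2 (YGL123W), whose protein lies at the mRNA entry side and acts in the accuracy of decoding, had 1.17 in NRO (HS), 1.99 in NRO, 1.72 in total RNA (HS) and 3.09 in total RNA. These 3 genes stood above the 98th percentile of all models in total RNA.

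RPS15 (YOL040C), whose protein reaches towards the decoding site, had the highest nascent values of the members, with 1.97 in NRO (HS) and 3.24 in NRO, beside 1.35 in total RNA (HS) and 2.81 in total RNA. RPS3, RPS13 and RPS20 were lower in every library. RPS3 (YNL178W), at the entry of the mRNA channel, had 0.109 in NRO (HS), 0.117 in NRO, 0.0899 in total RNA (HS) and 0.356 in total RNA. RPS13 (YDR064W) had 0.00510 in NRO (HS), which is 1 read, 0.129 in NRO, 0.0441 in total RNA (HS) and 0.274 in total RNA. RPS20 (YHL015W) was the lowest single-copy gene, with 0.00544 in NRO (HS), 0.00814 in NRO, 0.0158 in total RNA (HS) and 0.0361 in total RNA. RPS20 had 10 estimated reads in NRO and 16 in total RNA, although its region of 486 bases (sacCer2 chromosome VIII, 75584 to 76069, + strand) was 100% mappable.

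Low levels went with coding sequence shared with other genome sites, for most members the other copy. Windows of 36 coding bases, the length of a read, were compared with the rest of the R64 genome, and a window was near-matched where another site differed from it by at most 2 bases. These windows cover the whole coding sequence. The read density leaves out the first 200 bp after the TSS and includes untranslated bases, so that the 2 measures refer to partly different bases. More than 50% of the windows were near-matched in 24 of the 52 members (46.2%), against 2.61% of 4259 genes. The 7 members with no near-matched window, which were single-copy genes, had a median read density in NRO of 1.35, beside 2.70 in total RNA. For the 21 members with up to 50% of such windows the NRO median was 0.141, beside 0.149 in total RNA. For the 24 members above 50% it was 0.0402, beside 0.0593 in total RNA. Across the 52 genes, Spearman's rho of read density with the near-matched share was -0.38 in NRO (HS), -0.31 in NRO, -0.43 in total RNA (HS) and -0.41 in total RNA, as a description over genes that share libraries and, within pairs, sequence. The part of shared sequence in the low values was not tested. RPS20, RPS28B and RPS27A were low with 0%, 2.37% and 5.69% of near-matched windows, and RPS18A and RPS4A were at 0.874 and 0.312 in total RNA with 65.0% and 95.9%.

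**Figure D2:**
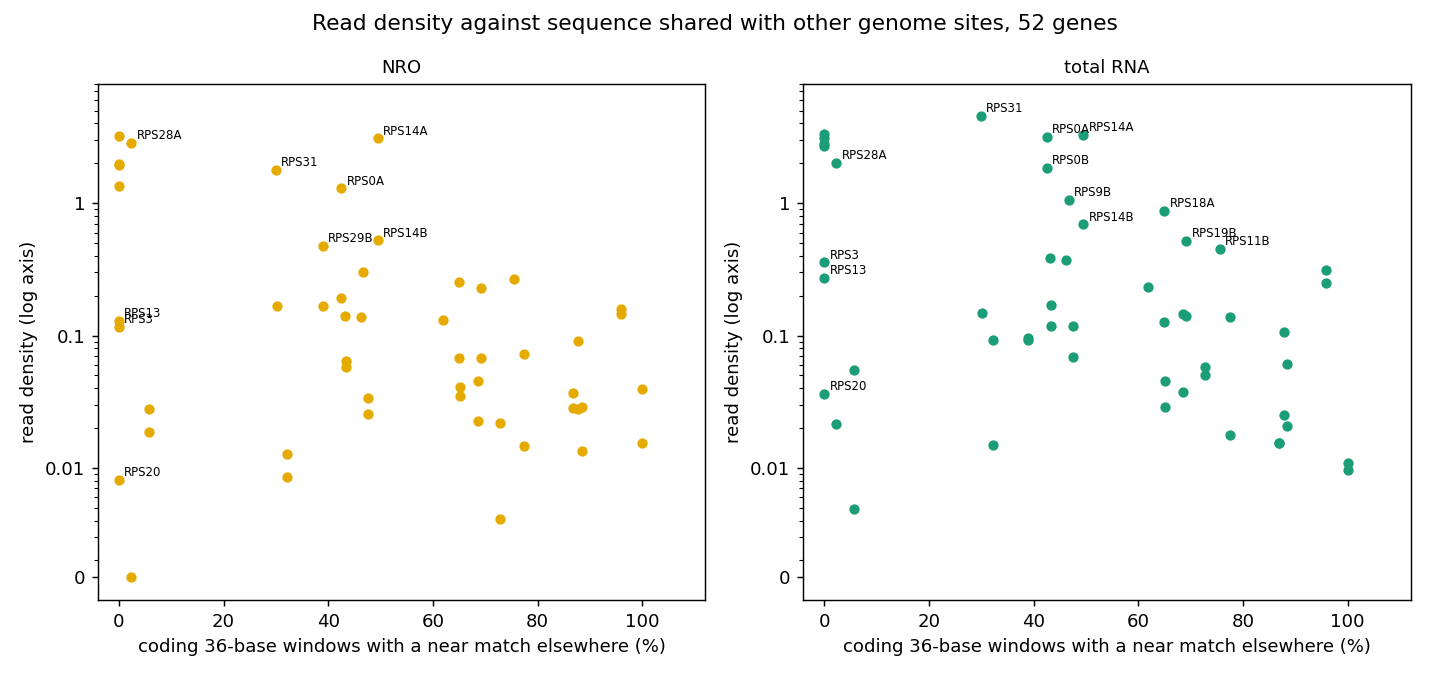
Read density (log axis) in NRO and in total RNA against the percentage of coding 36-base windows that have a site elsewhere in the genome with at most 2 differences, 1 point for each of 52 genes. In total RNA the medians are 2.70 for genes with none, 0.149 for genes up to 50% and 0.0593 for genes above 50%, and RPS20, with none, lies at 0.0361.

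In log growth, nascent RNA of the small subunit genes was low for their abundance. The summed member depth, scaled to the bases acquired, was in NRO 0.559 of that in total RNA (0.548 to 0.570, exact binomial interval). The log2 ratio, with NRO over total RNA, had a median of -0.92 over the 51 members with both values, where the median of all genes was -0.01. A ratio at least 2-fold lower in NRO was found in 22 of the 51 members, against 19% of all 3400 genes with both values, and at least 2-fold higher in 4, against 21.8%. The counting interval lay below 1 in 32 members, against 29.9% of all genes, and above 1 in 6, against 30.1%. The large subunit genes had a similar median, -0.74 over 65 genes, whereas 48 assembly factors of the small subunit, which act on the precursor particle and do not stay in the ribosome, had a median of 0.04. The medians of both classes of ribosomal protein genes thus lay on the side of abundance, and that of the assembly factors lay near the median of all genes.

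RPS0B (YLR048W) had the lowest ratio among members with at least 50 reads in both libraries. It codes for one of the copies of a protein needed for late maturation of the 18S rRNA, and had 0.191 in NRO (464 reads) against 1.85 in total RNA (1616 reads), a ratio of 0.103 (0.0928 to 0.114). Its region (sacCer2 chromosome XII, 242233 to 243567, + strand) was 100% mappable. RPS9B (YBR189W), for a protein that binds early to the 18S rRNA, had 0.302 in NRO and 1.06 in total RNA, a ratio of 0.285 (0.252 to 0.321). RPS1B had 0.0337 in NRO and 0.118 in total RNA, a ratio of 0.285 (0.194 to 0.407). RPS18A was next, with 0.253 in NRO and 0.874 in total RNA, a ratio of 0.290 (0.250 to 0.336), which lies within the intervals of the other 2. The ratios of RPS7A, RPS10A, RPS20 and RPS30B, between 0.0814 and 0.226, rest on 2 to 23 NRO reads.

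At the other end, nascent RNA of RPS28A (YOR167C) was above its abundance, with 2.87 in NRO and 2.02 in total RNA, a ratio of 1.42 (1.22 to 1.65). RPS15 had 3.24 in NRO and 2.81 in total RNA, a ratio of 1.15 (1.07 to 1.25). RPS14A (YCR031C), for a protein of the platform of the subunit, had 3.09 in NRO and 3.30 in total RNA, a ratio of 0.938 (0.880 to 0.998). RPS29B (YDL061C), for a small zinc-binding protein, had the highest ratio of the members at 5.0 (3.70 to 6.84), with 0.477 in NRO (651 reads) and 0.0954 in total RNA (47 reads). The other 3 members at least 2-fold higher, RPS6B and RPS27A among them, had 2 to 6 reads in total RNA, so that RPS29B was the one with at least 10 reads in both libraries, 1 of 41 such members, against 16.3% of all genes. Of the same 41 members, 20 were at least 2-fold lower, against 17.4%. RPS28B was at 0 in NRO and at 0.0214 in total RNA (13 reads), and was at least 11.7-fold lower in NRO, with the floor of 3 reads for a library at 0.

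After heat shock the ratio of nascent to total RNA was nearer to 1. Summed over the members, NRO (HS) was 0.856 of total RNA (HS) (0.816 to 0.898). The median log2 ratio was -0.14 over the 39 members with both values, against 0.22 over all 2831 genes. A ratio at least 2-fold higher in NRO (HS) was found in 11 of the 39 members, against 24.4% of all genes, and at least 2-fold lower in 7, against 12.9%. When the ratios were centred on the median of all genes, 9 members were higher and 10 lower. With at least 10 reads in both libraries, 5 of 22 members were higher, against 17.6% of all genes, and 1 was lower, against 7.01%, so that the counts in this comparison depend on the weakly covered members.

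The members with at least 50 reads in both HS libraries spanned a narrow range. RPS15 had the highest ratio, with 1.97 in NRO (HS) and 1.35 in total RNA (HS), a ratio of 1.46 (1.23 to 1.74). RPS9B followed with 0.430 in NRO (HS) and 0.457 in total RNA (HS), a ratio of 0.940 (0.734 to 1.20), and RPS14A with 1.54 and 1.68, a ratio of 0.921 (0.793 to 1.07). The intervals of RPS9B and RPS14A hold 1. Low ratios were 0.621 (0.469 to 0.813) for RPS0B, with 0.200 and 0.323, and 0.628 (0.498 to 0.791) for RPS31, with 0.737 and 1.17. Below 50 reads, RPS29B again had a high ratio, 6.15 (3.83 to 10.7), with 0.367 in NRO (HS) and 0.0596 in total RNA (HS). The other members with a ratio of at least 2 and an interval above 1 were RPS21B at 4.77 (1.41 to 20.6), RPS28A at 3.59 (1.88 to 7.15), RPS18B at 3.47 (1.08 to 12.9), RPS22A at 3.37 (1.46 to 7.94), RPS4A at 2.99 (1.64 to 5.23), RPS26B at 2.23 (1.05 to 4.85) and RPS11B at 2.03 (1.31 to 3.16).

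**Figure D3:**
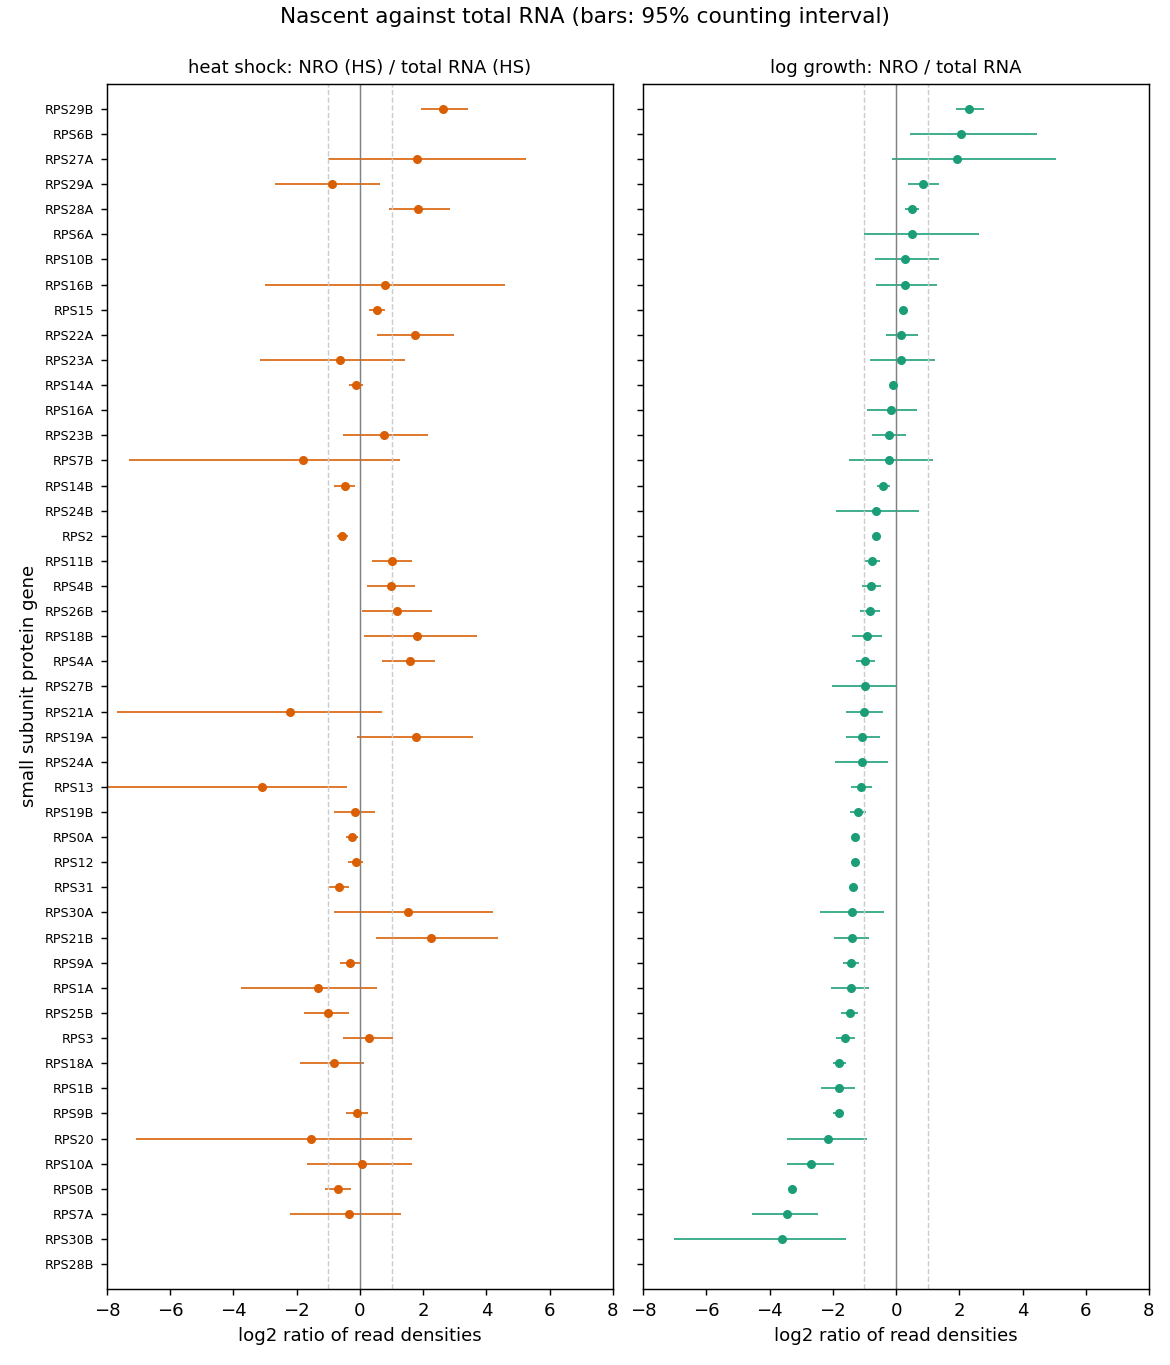
Log2 ratio of nascent to total RNA for 47 members (rows, ordered by the log growth ratio), at heat shock on the left and in log growth on the right, with bars for the exact 95% counting interval and dashed lines at 2-fold; members without a value in 1 library have no point. In log growth 35 of the 46 with a value lie below 1 (50.2% of all genes), and RPS29B is the highest in both conditions.

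Transcript abundance of the small subunit genes was lower after heat shock in most members. The summed member depth in total RNA (HS) was 0.434 (0.421 to 0.448) of that in total RNA. The median log2 ratio was -1.73 over the 49 members with both values, against -0.41 over all 3282 genes. A ratio at least 2-fold lower in total RNA (HS) was found in 38 of the 49 members, against 27.7% of all genes, and at least 2-fold higher in 0, against 10.2%. The counting interval lay below 1 in 37 members, against 33.3% of all genes, and above 1 in 1, RPS9A, against 12.5%. With at least 10 reads in both libraries, 21 of 27 members were at least 2-fold lower, against 18% of all genes, 0 were 2-fold higher, against 7.56%, and the median was -1.43. The sum over the 10 members with a read density of at least 1 in total RNA was 0.436 (0.421 to 0.452) of that in total RNA and the sum over the other 42 was 0.426 (0.397 to 0.457), but the median log2 ratio was -1.09 in these 10 members and -1.83 in the 39 others with both values.

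Large subunit genes were lower by a similar amount, with a median of -1.50 over 64 genes and 50 of them at least 2-fold lower. Of the small subunit assembly factors, 24 of 44 were at least 2-fold lower, with a median of -1.06. The regulators of ribosomal protein genes differed less, with a median of -0.44 over 10 genes and 1 of them, the histone deacetylase gene RPD3, at least 2-fold lower at -1.10. RAP1 itself was at 0.0651 in total RNA (HS) and 0.0774 in total RNA.

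Among members with at least 50 reads in both libraries, RPS0B had the lowest ratio, with 0.323 in total RNA (HS) and 1.85 in total RNA, a ratio of 0.174 (0.150 to 0.202). RPS31 had 1.17 in total RNA (HS) and 4.59 in total RNA, a ratio of 0.256 (0.225 to 0.291). RPS19B, whose human homologue is mutated in Diamond-Blackfan anaemia, had 0.194 in total RNA (HS) and 0.521 in total RNA, a ratio of 0.372 (0.279 to 0.499). Ratios below that of RPS0B were found in 10 members with fewer reads. They were 0.0957 (0.0525 to 0.161) for RPS28A and 0.126 (0.0874 to 0.177) for RPS18A, between 0.0990 and 0.117 on 1 to 6 reads in total RNA (HS) for RPS21B, RPS30B, RPS18B, RPS19A and RPS1B, and between 0.138 and 0.165 for RPS26B, RPS13 and RPS4A. RPS28A had 15 reads in total RNA (HS) and 214 in total RNA.

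Among members with at least 50 reads in both libraries, RPS9A and RPS14B had ratios above 1. RPS9A (YPL081W), whose partner RPS9B was lower after heat shock, had 0.531 in total RNA (HS) and 0.370 in total RNA, a ratio of 1.43 (1.20 to 1.71). RPS14B (YJL191W) had 0.782 in total RNA (HS) and 0.694 in total RNA, a ratio of 1.13 (0.949 to 1.33), and its interval holds 1. The protein of the RPS14 pair is known to bind the RPS14B precursor RNA and to repress it. Ratios above 1 in RPS6B, RPS7B and RPS27A rest on 2 to 8 reads. RPS28B was at 0 in total RNA (HS), at least 3.09-fold lower than in total RNA.

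Transcriptional activity of the members was also lower after heat shock, by less. The summed NRO (HS) depth of the members was 0.664 (0.638 to 0.692) of that in NRO. The median log2 ratio was -0.56 over the 41 members with both values, against -0.10 over all 2894 genes. A ratio at least 2-fold lower in NRO (HS) was found in 14 of the 41 members, against 23.1% of all genes, and at least 2-fold higher in 2, against 16.2%. With at least 10 reads in both libraries, 5 of 25 members were 2-fold lower, against 14% of all genes, and 1 was 2-fold higher, against 16%, with a median of -0.38. The large subunit genes had a median of -0.27 over 58 genes and the assembly factors one of -0.68 over 39.

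RPS31 had the lowest ratio with at least 50 reads, with 0.737 in NRO (HS) and 1.78 in NRO, a ratio of 0.413 (0.337 to 0.507). RPS14A had 1.54 in NRO (HS) and 3.09 in NRO, a ratio of 0.500 (0.441 to 0.567). RPS9A had the highest ratio, with 0.431 in NRO (HS) and 0.139 in NRO, a ratio of 3.10 (2.48 to 3.86). RPS9B had 0.430 in NRO (HS) and 0.302 in NRO, a ratio of 1.42 (1.14 to 1.76), so that both RPS9 copies had more nascent RNA after heat shock. RPS12 had 1.47 in NRO (HS) and 1.35 in NRO, a ratio of 1.09 (0.941 to 1.26) that holds 1. At fewer reads, RPS13 had the lowest ratio, 0.0397 (0.000998 to 0.224), from 1 read in NRO (HS) and 166 in NRO, and RPS29A had 0.149 (0.0477 to 0.351), from 5 and 222 reads.

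A total of 11 members were at 0 in NRO (HS). Counted against NRO with a floor of 3 reads, RPS1B was at least 2.81-fold lower, RPS16A 2.53-fold, RPS10B 2.08-fold, RPS6B 1.81-fold, RPS24A 1.52-fold and RPS27B 1.11-fold. For RPS6A, RPS24B and RPS30B the NRO value was too low for a bound, and RPS28B was at 0 in both libraries. With 0.01 added to both read densities so that all 52 members are kept, the median log2 ratio was -0.63 in nascent RNA and -1.33 in total RNA.

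Taking both changes side by side for the 39 members with all 4 values, 28 were below 1 in total RNA and in nascent RNA, 7 were below 1 in total RNA and above it in nascent RNA, 1 the reverse, and 3 were above 1 in both. Of all 2781 genes with both changes, the counts in the same order were 1201, 644, 320 and 616. The change in total RNA was the lower one in 29 of the 39 members (74.4%), against 57.0% of 2781 genes. The log2 ratio of nascent to total RNA was higher at heat shock than in log growth by a median of 1.00 in the members, against 0.20 in all genes. RPS0B, named after its values were seen, had a nascent ratio of 1.05 (0.810 to 1.34) and a total RNA ratio of 0.174. RPS0A, its partner, had a nascent ratio of 0.939 (0.836 to 1.05) and a total RNA ratio of 0.460 (0.421 to 0.501). RPS4A and RPS4B had nascent ratios of 0.960 (0.646 to 1.36) and 0.961 (0.642 to 1.36), and total RNA ratios of 0.165 (0.102 to 0.266) and 0.281 (0.184 to 0.420). RPS14A had like values in both, 0.500 in nascent RNA and 0.509 in total RNA.

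**Figure D4:**
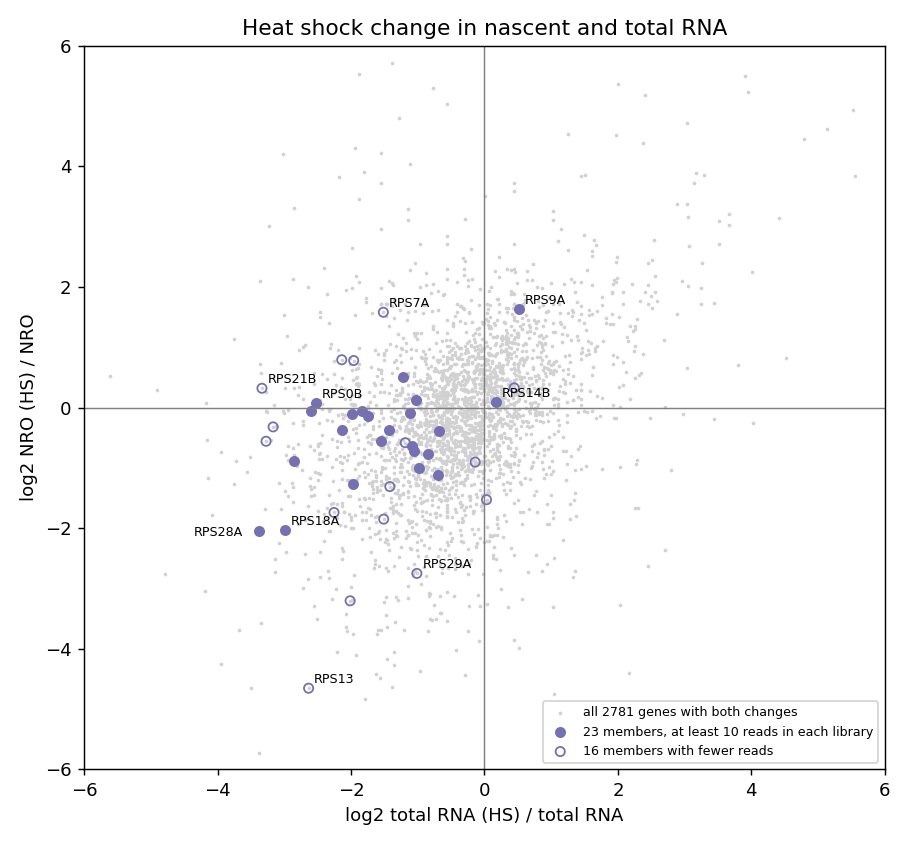
Log2 ratio of NRO (HS) to NRO against log2 ratio of total RNA (HS) to total RNA, for 2781 genes (grey) and 39 members (filled, at least 10 reads in each library after rounding; open, fewer). Most members lie left of 0 on the horizontal axis, at a median of -1.52, and nearer to 0 on the vertical axis, at a median of -0.55, and RPS9A lies above 0 on both.

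The A and B copies of a pair often differed. Of the 20 pairs, 8 of 11 with both values were at least 2-fold apart in NRO (HS), 12 of 19 in NRO, 11 of 17 in total RNA (HS), and in total RNA 11 of 20. The counting interval excluded 1 in 6 of these 11 pairs in NRO (HS) and in 12 of 19 in NRO. In total RNA (HS) it did so in only 4 of 17 pairs, and in total RNA in 13 of 20, so that some of these differences rest on a few reads. Neither copy was favoured throughout, since A was the higher copy in 8 pairs of NRO and in 13 of total RNA. Of 10 pairs with values in every library, 6 kept the order of their copies in all of them (A higher in RPS0, RPS14 and RPS18, B higher in RPS19, RPS23 and RPS29).

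The pair farthest apart in total RNA was RPS28, with 2.02 for RPS28A and 0.0214 for RPS28B, a ratio of 94.5 (52.7 to 176). RPS28A had 0.695 in NRO (HS), 2.87 in NRO and 0.194 in total RNA (HS), and RPS28B was at 0 in these 3 libraries. Both regions were 100% mappable but unlike in length, with 118 bases for RPS28A and 660 for RPS28B. Leaving out the first 200 bp after the TSS put most of each coding sequence of 204 bases outside its region. The ratio thus compares mainly sequence downstream of the coding bases, over regions of unlike length. RPS27 was next, in the other direction. In NRO RPS27A had 0.0185 and RPS27B 0.0279, a ratio of 0.663 (0.347 to 1.26) that holds 1, and in total RNA they had 0.00492 (2 reads) and 0.0553 (16 reads), a ratio of 0.0889 (0.00968 to 0.369).

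Among the pairs with at least 90% mappable bases, RPS29, RPS30 and RPS21 were nearest in total RNA. RPS29A and RPS29B had 0.0247 and 0.367 in NRO (HS), a ratio of 0.0674 (0.0213 to 0.164), 0.166 and 0.477 in NRO, a ratio of 0.349 (0.299 to 0.407), and 0.0920 and 0.0954 in total RNA, a ratio of 0.964 (0.621 to 1.48). The RPS29 copies were thus unequal in nascent RNA, whereas the interval of their ratio in total RNA holds 1, in regions of 540 and 560 bases around a coding sequence of 171. RPS30A and RPS30B had 0.0219 and 0.00413 in NRO, from 19 and 2 reads, and 0.0577 and 0.0507 in total RNA, a ratio of 1.14 (0.512 to 2.84). RPS21A and RPS21B had 0.0581 and 0.0647 in NRO, a ratio of 0.898 (0.619 to 1.31), and 0.117 and 0.171 in total RNA, a ratio of 0.686 (0.451 to 1.04).

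RPS0, RPS14, RPS19 and RPS28 were the pairs whose interval lay on the same side of 1 in every library. For RPS14 the ratio of A to B was 2.76 (2.20 to 3.50) in NRO (HS), 5.88 (5.40 to 6.40) in NRO, 2.15 (1.84 to 2.51) in total RNA (HS) and 4.75 (4.19 to 5.39) in total RNA. The RPS14 copies were therefore nearer to each other after heat shock than in log growth, in nascent and in total RNA, with intervals that do not overlap. For RPS0 the ratio was 6.07 (4.71 to 7.93) in NRO (HS), 6.80 (6.14 to 7.52) in NRO, 4.51 (3.86 to 5.30) in total RNA (HS) and 1.71 (1.60 to 1.83) in total RNA. The RPS0 copies were thus most alike in total RNA of growing cells. For RPS19 it was 0.308 (0.129 to 0.659), 0.296 (0.226 to 0.384), 0.0803 (0.0276 to 0.217) and 0.269 (0.195 to 0.360) in the same order of libraries. For RPS9 the ratio differed between the conditions, with A over B at 1.00 (0.766 to 1.31) in NRO (HS) and 0.460 (0.394 to 0.535) in NRO, and at 1.16 (0.960 to 1.40) in total RNA (HS) and 0.349 (0.300 to 0.405) in total RNA, so that the intervals hold 1 after heat shock and lie below 1 in log growth.

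**Figure D5:**
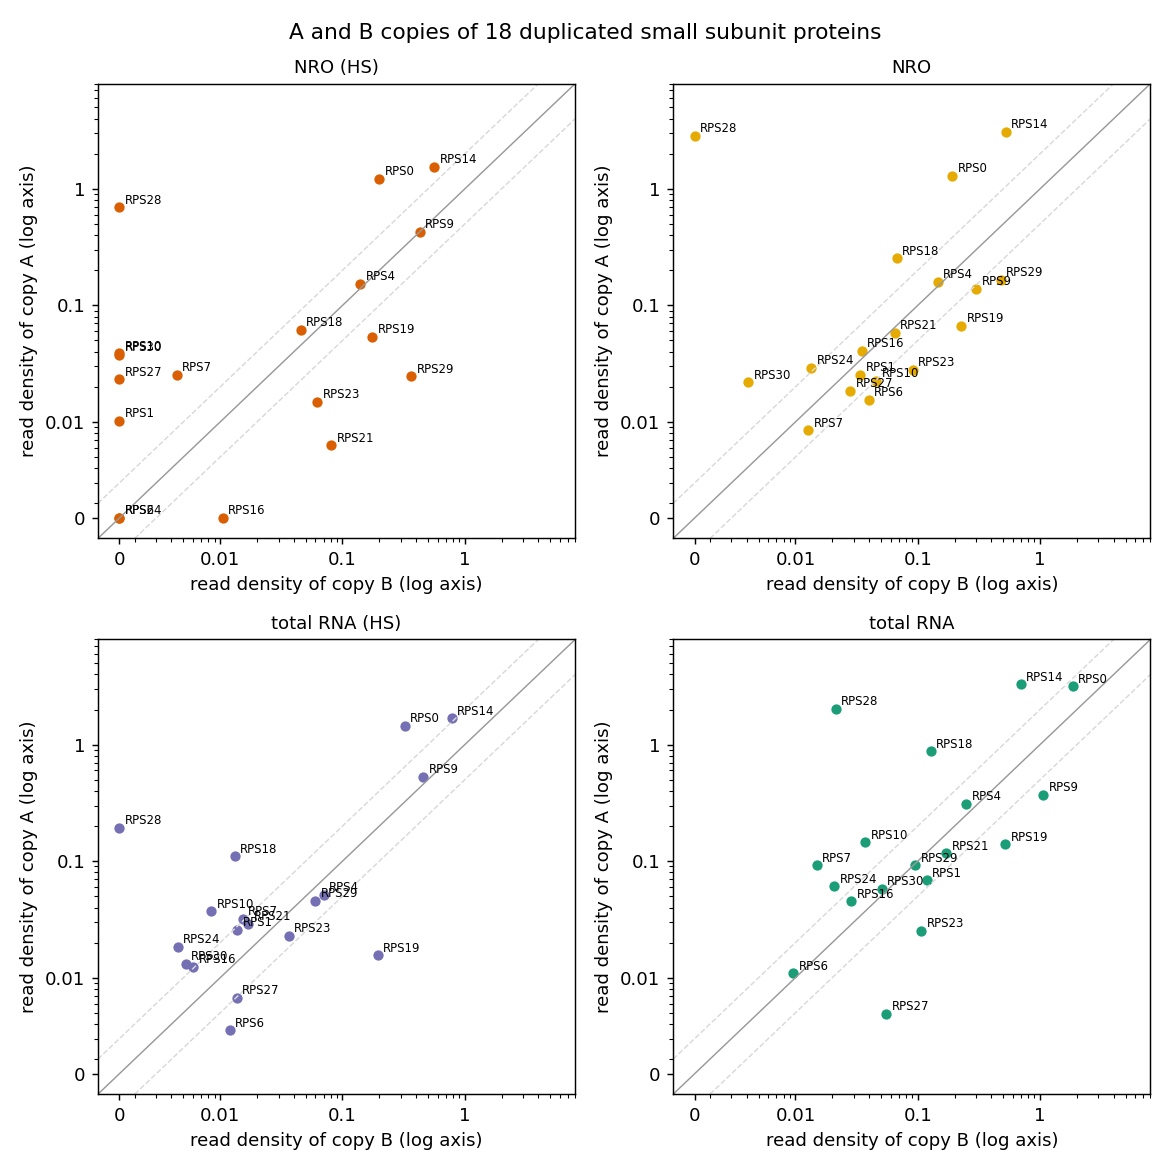
Read density of copy A against copy B for 18 pairs in each library (log axes, copies at 0 drawn at the mark 0), with the line of equality and dashed lines at 2-fold. RPS28 lies farthest from the line in total RNA, at 2.02 for A and 0.0214 for B, and RPS0 and RPS14 lie above it in every library.

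Introns give a measure of unspliced RNA that the read density leaves out. In R64, 36 of the 56 genes have an intron within the coding sequence, of 256 to 551 bases with a median of 408.5. Of these introns, 24 begin with the letters GTATGT and 33 hold the branch site letters TACTAAC. Of the 52 members, 39 had bases marked as intronic beyond the first 200 bp, 34 of them with such an intron in R64 and 5 others, RPS25B, RPS29A and RPS29B among them, with 5 to 13 bases. No intron of the 34 had a near-matched window, so that intronic reads are not shared between copies in the way that coding reads can be. The members with intronic bases had a median read density of 0.0254 in NRO (HS), 0.0647 in NRO, 0.0290 in total RNA (HS) and 0.107 in total RNA, and the 13 without had 0.150, 0.166, 0.0899 and 0.356. Those without included the single-copy genes RPS2, RPS3, RPS12, RPS15, RPS20 and RPS31, whereas RPS13 was the only single-copy gene with intronic bases. The parts of copy number and shared sequence in this difference were not tested.

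Pooled over the 39 members, the intronic read density was 9.87% (7.60 to 12.8) of the nonintronic one in NRO (HS), 16.4% (15.3 to 17.5) in NRO, 5.75% (4.46 to 7.31) in total RNA (HS) and 7.43% (6.59 to 8.35) in total RNA. The intronic share was 2.20-fold (1.93 to 2.52) higher in NRO than in total RNA, and 1.72-fold (1.21 to 2.43) higher in NRO (HS) than in total RNA (HS). A single member held an estimated 286 of the 882 intronic NRO reads. Without it the ratios were 1.90 (1.63 to 2.22) in log growth and 1.23 (0.775 to 1.96) at heat shock, the last of which holds 1. The intronic read density itself was 0.0382 in NRO and 0.0355 in total RNA, and 0.0262 and 0.0282 without that member, while the nonintronic one over the 39 members was 0.233 for NRO, against 0.478 for total RNA. In 19 of the 39 members NRO had the higher intronic density, and 18 had no intronic depth in NRO. Besides the member left out, RPS4B held an estimated 143, RPS21B 126 and RPS4A 118 of the 882 intronic NRO reads. In total RNA, RPS4B held 161 of the 294 intronic reads. The pooled shares thus rest largely on a few members, also after that removal.

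RPS4B had intronic read densities of 0.0961 in NRO (HS), 0.523 in NRO, 0.207 in total RNA (HS) and 1.63 in total RNA over 110 intronic bases, and its intronic value in total RNA was 6.55-fold the nonintronic one. Near-matched windows made up 95.9% of the coding windows of RPS4B and 0% of its intron windows. The part of this difference in the 6.55-fold value was not tested. RPS4A had 0 in NRO (HS), 0.505 in NRO, 0.0324 in total RNA (HS) and 0.154 in total RNA over 94 intronic bases. RPS21B had 0.156 in NRO (HS), 0.166 in NRO, 0.0449 in total RNA (HS) and 0.0412 in total RNA, so that its intron stayed covered in nascent RNA after heat shock. RPS14A and RPS9B, both with high nonintronic values, had no intronic depth in any library, over 136 and 243 intronic bases. The source of the intronic reads was not tested.

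The ends of the introns of RPS4B, RPS21B and RPS4A are printed because their intronic values are given above, with the 5′ splice site and the branch site in capitals (R64 coordinates, in the direction of the gene). The first line of each gene is the start of the intron and the second surrounds the branch site.
RPS4B (chrVIII:505487-505516, - strand): GTATGTtgatttccacctaaaaaaatgaag
RPS4B (chrVIII:505276-505305, - strand): cgggatattttTACTAACaagagtacgttt
RPS21B (chrX:157220-157249, - strand): GTACGTaaattatagcagatgatggcgcgc
RPS21B (chrX:156803-156832, - strand): aagcgcaaatgTACTAACattgaataattt
RPS4A (chrX:703025-703054, - strand): GTATGTttgactatagactttgattataat
RPS4A (chrX:702868-702897, - strand): gagtaatgattTACTAACgagcacaatgaa
RPS21B begins with GTACGT in place of GTATGT, as do RPS9A, RPS9B, RPS14B, RPS19A, RPS19B, RPS30A and RPS30B among others. The introns of RPS9A, RPS9B and RPS21A hold no TACTAAC. The RPS4 copies begin with GTATGT and have the same branch site letters.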

How the data were processed

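Strand-specific reads of 12 libraries in 4 groups of BY4742 were analysed, and 1 library of NRO 3′ ends was not used. Reads were mapped by the authors with Maq (genome build sacCer2) at a mapping quality of 30 or more, without rDNA, and replicates were merged. What they deposited is a signal, the coverage per base scaled to the bases acquired, beside summed depths, and 12 other columns of depth and density were not used. Coordinates of regions are those of sacCer2, and sequences were read by systematic name from the R64 annotation, with the 500 bases before the start codon as the promoter window; proteins were not compared.

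The step between depths gave the bases acquired, and the depth over a read length of 36 bases (38 for total RNA) gave the estimated reads. The methods state 36 bases for every read, but of the low depths in total RNA 82.4% were whole multiples of 38 and 0.504% of 36. Ratios have exact binomial 95% intervals and shares Wilson intervals, for counting error only. The ratios of the intronic share between NRO and total RNA libraries have instead 95% intervals from a normal approximation on the log scale. Reads are not independent molecules. Members were called at 2-fold, among genes above 0 in both libraries. A floor of 3 reads bounds values at 0.

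The members were set by their systematic names, and the gene lists, the heat shock check among them, were chosen with earlier results of these data known. Genes named with all values are the 3 highest and 3 lowest of each ratio at 50 or more reads, the 3 farthest and 3 nearest pairs in total RNA with 90% or more mappable bases, members at 0 and single-copy genes. Others were named after their values were seen, and a few members are counted in the totals but not reported by name here. Alternatives covered the measure, a minimum of 10 reads (before rounding), a pseudocount of 0.01, centring, mappability, the fold limit and the call rule. Near-matched sequence and the R64 intron set were added after seeing the data. The tools were biopython 1.88, numba 0.67.0, scipy 1.17.1, pandas 2.3.3, numpy 2.4.6, matplotlib 3.10.9 and Python 3.11.15, and the steps were tested on simulated data.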

Additional observations from a re-analysis of the deposited data

How the results depend on the processing

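No median log2 ratio changed sign. Of 104 recomputed values, 78 stayed close to those given above and 26 moved. For counts, close means within 1.5-fold. For other values it means within the distance from a value to a limit of its typical counting interval. These limits are wide. They take as close the median of NRO (HS) over total RNA (HS), -0.14 and -0.36 with centring. The same holds for the intronic ratio at heat shock, 1.72 and 1.23 without 1 member. The balance of NRO (HS) over total RNA (HS), 11 members higher and 7 lower, turned to 9 higher and 10 lower with centring and to 5 higher and 6 lower with at most 50% of near-matched windows. At a minimum of 10 reads in both libraries, the members 2-fold higher numbered 1 for NRO over total RNA, 5 for NRO (HS) over total RNA (HS) and 1 for NRO (HS) over NRO, and those 2-fold lower numbered 1 for NRO (HS) over total RNA (HS), 21 for total RNA (HS) over total RNA and 5 for NRO (HS) over NRO. This filter leaves 41, 22, 27 and 25 members and so accounts for part of the change by construction. Pairs 2-fold apart with at least 10 reads in both copies numbered 2 of 5 in NRO (HS), 2 of 5 in total RNA (HS), and in total RNA 7 of 14. A pseudocount of 0.01 left 2 members higher in NRO over total RNA and 1 in NRO (HS) over NRO, and a minimum of 90% mappable bases left 2 in NRO over total RNA. With at most 50% of near-matched windows, 2 of 27 members were higher in NRO over total RNA, 5 of 25 were higher in NRO (HS) over total RNA (HS), 19 of 27 were lower in total RNA (HS) over total RNA and 9 of 25 were lower in NRO (HS) over NRO. A 1.5-fold limit gave 13 lower members for NRO (HS) over total RNA (HS) and 4 higher for NRO (HS) over NRO. With an interval that excludes 1, these were 2 and 1, and 9 members were lower in NRO (HS) over NRO. Of the depth in all transcript models, the members held 1.19% in NRO (HS), 1.67% in NRO, 1.37% in total RNA (HS) and 3.01% in total RNA. The intronic ratio of NRO to total RNA was 1.90 without the member that held 286 of these reads. Beyond the filters, the cause of these moves was not tested.

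No paired analysis was possible because the replicates of each group were merged before deposit. The depth of NRO (HS), with a median of 7.5 reads per member, limits all statements on nascent RNA after heat shock.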
